A study of Homo sapiens with 18 samples.

Results

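The 9 genes described here are the retinoic acid receptors RARA, RARB and RARG, the retinoic acid hydroxylases CYP26A1 and CYP26B1, the retinal reductase DHRS3, the retinol carrier RBP4, the retinoic acid carrier CRABP2 and the RBP4 receptor STRA6. They were picked by name out of 36684 gene symbols in the count table, with earlier results of these data known. The libraries came from Hep3B, a human hepatoma line grown in culture, and were made from polyA-selected RNA. There were 6 groups of 3 libraries: untreated cells (Con), cells given free fatty acids as a steatosis model (Model), fatty acid-treated cells given fucoxanthin at 0.5, 1 or 2 μM (FUCO-0.5, FUCO-1 and FUCO-2), and fatty acid-treated cells given Resmetirom (RES). Fucoxanthin is a carotenoid of brown algae and Resmetirom is an agonist of thyroid hormone receptor β. All groups share this 1 cell line, so they are a model of hepatoma cells rather than of liver tissue. The fatty acid concentration, the treatment times and the RES dose of these libraries are not given in the sources used here.

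Retinoids are vitamin A and its derivatives. Cells take up retinol, oxidise it to retinal and then to retinoic acid, and the CYP26 enzymes break retinoic acid down. Retinoic acid binds the RAR proteins, which pair with the retinoid X receptors (RXR) on DNA and switch target genes on or off. Hepatocytes are the main source of circulating RBP4, which travels in plasma bound to transthyretin, whereas the vitamin A stores of the liver lie mostly in stellate cells. RARB, CYP26A1 and DHRS3 are themselves textbook targets of retinoic acid.

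The total count per library ran from 16916688 to 23083498. Of 14557 genes that passed the filter on low counts, 8 were members of the set, and the remaining member, CYP26A1, did not pass. CRABP2 passed on 4 libraries, of which 3 were RES libraries, where its counts were highest. Among the markers used to check the cell type, all 8 hepatocyte markers were detected in every group. Of the markers of other liver cells, ACTA2 and COL3A1 (stellate), CD163 and MARCO (macrophage) and CDH5 and KDR (endothelial) were at 0 in every group. The 8 stellate markers summed to 12.3 to 23.7 CPM outside RES, mostly PDGFRB, and to 5.69 to 6.30 CPM in RES. PDGFRB averaged 18.3 CPM in Con, 12.3 CPM in Model and 1.16 CPM in RES. It fell in Model against Con and in RES against Model. COL1A1, also a stellate marker, rose from 1.37 CPM in Model to 2.13 CPM in RES. The means of COL1A2 and RGS5 were higher in RES than in Model without a call. In Model against Con COL1A2, a stellate marker, rose from 0.225 to 0.915 CPM and PECAM1, an endothelial marker, from 0.364 to 1.26 CPM. The 6 endothelial markers summed to 0.299 to 2.41 CPM over all libraries. The part of these markers in the results was not tested. The summed level of the 8 hepatocyte markers was 62428 to 70353 CPM (counts scaled to library size) in Con, 51736 to 52227 in Model, 43272 to 54324 in FUCO-0.5, 46013 to 48501 in FUCO-1, 34987 to 39250 in FUCO-2 and 15124 to 15534 in RES. The summed macrophage markers were 2.60 to 5.53 CPM outside RES and 11.1 to 12.9 CPM in RES, mostly CD14, which hepatocytes also express. All libraries came from this 1 cell line, and a change in every cell cannot be told apart from a change in some cells in bulk libraries.

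RARB and CYP26A1 are shown first as sequence, because a promoter of each holds the repeat that RAR and RXR bind. The search looked for 2 copies of a word of 6 letters in the same direction with 5 bases between them, each copy being AGGTCA, or its close variant AGTTCA, or the word GGGTCA, or the word GGTTCA, on both strands from 250 bases before to 50 bases after each gene start (RefSeq, GRCh38.p14). Such a repeat was present in 31 of 35116 promoters (0.0883%), or 29 of 27305 genes (0.106%). All 9 members had at least 1 promoter in the RefSeq table, 23 in all, and 2 of the 9 genes held the repeat, against 0 of 52 other retinoid genes and targets listed here that were in the table. The words searched are those of the repeat that RAR and RXR bind, and RARB and CYP26A1 are textbook targets. These 2 matches are therefore a description and no test of the set. The same words spaced by 1 or 2 bases were found in no member. The 250 bases before the start follow, 5′ to 3′ on the strand of the gene, with the repeated words in capitals.
RARB, chr3:25428013-25428262, plus strand: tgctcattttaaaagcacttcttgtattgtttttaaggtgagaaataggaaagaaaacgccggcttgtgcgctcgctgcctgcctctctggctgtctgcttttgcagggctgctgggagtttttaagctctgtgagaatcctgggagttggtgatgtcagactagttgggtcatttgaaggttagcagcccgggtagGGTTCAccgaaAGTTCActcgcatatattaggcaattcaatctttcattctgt
CYP26A1, chr10:93073643-93073892, plus strand: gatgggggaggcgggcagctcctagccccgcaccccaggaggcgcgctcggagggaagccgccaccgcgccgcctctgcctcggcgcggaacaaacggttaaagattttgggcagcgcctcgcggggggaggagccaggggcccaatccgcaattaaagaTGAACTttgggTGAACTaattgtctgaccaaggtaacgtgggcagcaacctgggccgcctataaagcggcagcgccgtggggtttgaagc
RARB has 4 promoters in the RefSeq table and CYP26A1 has 2, and only the promoter printed for each held the repeat. In RARB the repeat lies 53 to 37 bases before the transcript start at 25428263 and reads in the direction of the gene. In CYP26A1 it lies 90 to 74 bases before the transcript start at 93073893 and reads on the opposite strand. Counts per gene do not tell which promoter the reads came from. A match describes these letters only, and binding was not measured in these libraries.

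Retinoic acid receptors. RARB was lower with fucoxanthin at each dose and was at the same level in Con and Model. The raw counts of RARB were 41, 37 and 36 in Con, 35, 46 and 38 in Model, and 45, 43 and 33 in RES. They were 16, 19 and 17 in FUCO-0.5, 14, 22 and 9 in FUCO-1, and 14, 18 and 22 in FUCO-2. All 9 fucoxanthin libraries, at 9 to 22 counts, therefore lay below all 9 other libraries, at 33 to 46 counts, and the 2 sets did not overlap. Of all tested genes 0.419% had all fucoxanthin libraries below all others.

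Scaled to library size, mean RARB was 2.18 ± 0.213 CPM in Con (SD, n = 3, as for all means here) and 2.18 ± 0.336 CPM in Model. It was 0.940 ± 0.0582 CPM in FUCO-0.5, 0.803 ± 0.357 CPM in FUCO-1 and 1.01 ± 0.238 CPM in FUCO-2. The 3 doses overlapped one another, and RES, at 1.89 ± 0.393 CPM, overlapped Con and Model. Against Model the log2 fold change was -1.20 (SE 0.26) in FUCO-0.5, -1.43 (SE 0.27) in FUCO-1 and -1.10 (SE 0.26) in FUCO-2, or 43.4%, 37.1% and 46.6% of the Model level. Between doses, the log2 fold change was -0.23 (SE 0.31) from 0.5 to 1 μM and 0.33 (SE 0.31) from 1 to 2 μM. No order of doses could be read from these values. RES differed from Model by a log2 fold change of -0.21 (SE 0.23). The 3 fucoxanthin comparisons share the Model libraries, and RARB was a low-count gene, so counting error makes up much of each library's spread. Leaving out 1 library at a time kept the log2 fold change between -1.29 and -1.07 in FUCO-0.5, between -1.83 and -1.21 in FUCO-1 and between -1.29 and -0.97 in FUCO-2.

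RARB (chromosome 3, 24829321 to 25597932, plus strand, GRCh38.p14) overlaps the end of TOP2B by 28 bases on the opposite strand and is also overlapped by the antisense gene RARB-AS1 over 1823 bases, and the strand setting of the counting is not stated. Mean TOP2B, a DNA topoisomerase, was 251 to 331 CPM over the 6 groups, and its log2 fold change against Model was 0.03 in FUCO-0.5, -0.16 in FUCO-1 and -0.21 in FUCO-2. RARB-AS1 was not among the symbols of the count table, so no level can be given for it. The share of RARB reads that could belong to TOP2B or RARB-AS1 was not tested.

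RARA was by far the most abundant of the receptors per unit of transcript length. In Model it stood at 6.22 CPM per kb of merged exons, against 0.353 for RARG and 0.231 for RARB. RARA counts were 532, 588 and 615 in Con and 567, 532 and 513 in Model. With fucoxanthin they were 529, 544 and 508 at 0.5 μM, 530, 488 and 552 at 1 μM, and 699, 550 and 475 at 2 μM, and with RES they were 682, 479 and 498. Scaled levels were 23.2 to 40.3 CPM over all 18 libraries, and the fucoxanthin groups overlapped Model at every dose, whereas the RES libraries, at 23.2 to 27.5 CPM, lay just below those of Model, at 27.8 to 31.1 CPM. The log2 fold change of RARA was -0.16 (SE 0.11) for Model against Con and, against Model, -0.04 in FUCO-0.5, -0.07 in FUCO-1, 0.13 in FUCO-2 and -0.21 (SE 0.11) in RES. RARA is overlapped by the antisense gene RARA-AS1 over 2270 bases, and reads from those bases cannot be told apart without strand. Mean RARA-AS1 was 0.535 to 0.899 CPM over the 6 groups.

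RARG, the third receptor, was a low-count gene with 19, 34 and 47 counts in Con and 37, 30 and 32 in Model. It had 29, 39 and 50 counts in FUCO-0.5, 46, 39 and 45 in FUCO-1, 27, 37 and 38 in FUCO-2 and 70, 61 and 45 in RES. Con and Model overlapped, and every FUCO-1 and RES library was above every Model library once scaled. The log2 fold change against Model was 0.24 in FUCO-0.5, 0.36 (SE 0.26) in FUCO-1, 0.08 in FUCO-2 and 0.59 (SE 0.25) in RES. The mean of RARG was thus above Model at each fucoxanthin dose and that of RARB below, and this difference between the receptors was not tested.

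**Figure D1:**
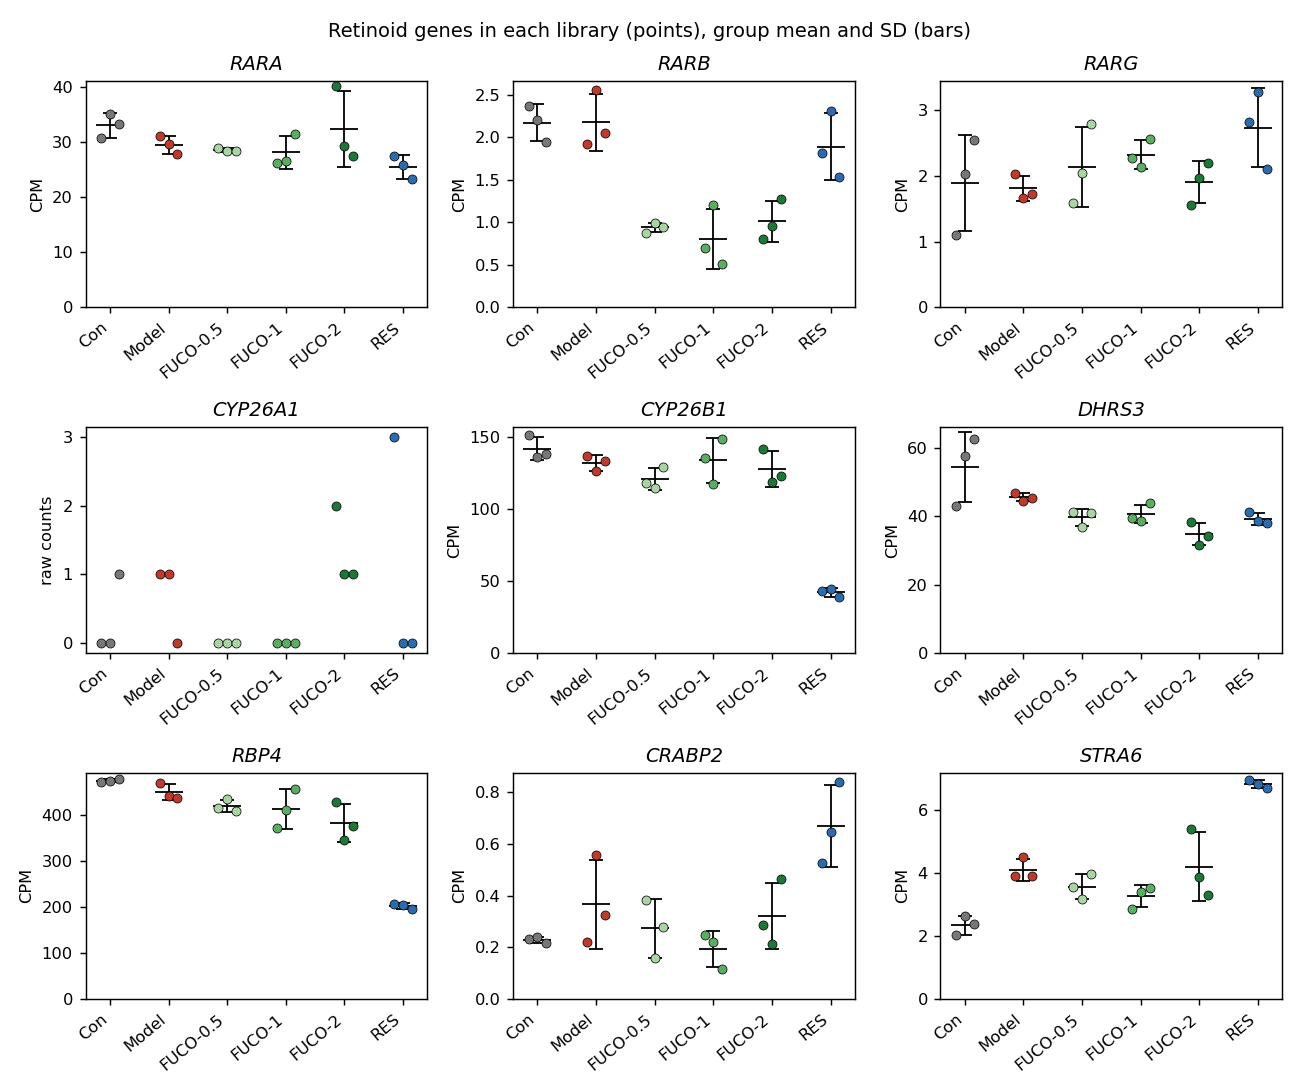
Level of each of the 9 retinoid genes in each library, by group. Points are libraries, in CPM (raw counts for CYP26A1), long horizontal lines are group means and bars are SD, n = 3. RARB sits at 0.514 to 1.27 CPM in the 9 fucoxanthin libraries and at 1.54 to 2.56 CPM in the 9 others, whereas CYP26B1 and RBP4 are lowest and STRA6 highest in the 3 RES libraries.

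Retinoic acid breakdown and retinal reduction. CYP26B1 carried nearly all reads of the 2 hydroxylases in these cells, and it was lower with RES. CYP26A1 had 10 counts over all 18 libraries, with 11 libraries at 0 and no library above 3 counts. A count of 0 allows up to 3 counts in a library, counting error only, so no fold is given for CYP26A1. In FUCO-2 each library had 1 or 2 counts, and in FUCO-0.5 and FUCO-1 all 6 had 0, which at this depth shows no difference.

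CYP26B1 counts were 2626, 2289 and 2560 in Con and 2497, 2274 and 2469 in Model. They were 2160, 2201 and 2322 in FUCO-0.5, 2747, 2152 and 2607 in FUCO-1 and 2468, 2236 and 2125 in FUCO-2. In RES they were 1071, 834 and 834. The RES libraries, at 38.9 to 44.9 CPM, lay far below the 15 others, at 115 to 152 CPM. Of all tested genes 34.1% had the RES libraries wholly above or below the others. Mean CYP26B1 was 132 ± 5.34 CPM in Model and 42.4 ± 3.10 CPM in RES, a log2 fold change of -1.64 (SE 0.090) or 32.0% of the Model level. In the other comparisons the log2 fold change was -0.10 for Model against Con and, against Model, -0.13 in FUCO-0.5, 0.02 in FUCO-1 and -0.05 in FUCO-2. CYP26B1 and RARB therefore differed in where their low libraries fell, RES for the one and fucoxanthin for the other.

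DHRS3, which turns retinal back into retinol, had 747, 964 and 1159 counts in Con and 854, 802 and 839 in Model. It had 754, 706 and 734 counts in FUCO-0.5, 800, 708 and 768 in FUCO-1, 667, 597 and 595 in FUCO-2, and 1020, 718 and 814 in RES. Con was the most scattered group and overlapped Model, and every fucoxanthin and RES library was below every Model library once scaled. Mean DHRS3 was 45.6 ± 1.12 CPM in Model and 34.9 ± 3.34 CPM in FUCO-2, the lowest group, with a log2 fold change of -0.39 (SE 0.10) or 76.4% of Model. It was -0.20 in FUCO-0.5, -0.16 in FUCO-1 and -0.22 (SE 0.10) in RES, and -0.26 (SE 0.10) for Model against Con. That last value was -0.14 without Con replicate 3 and -0.40 without Con replicate 1, where DHRS3 passed the threshold, as it did with no filter on low counts. Without FUCO-2 replicate 2 the FUCO-2 value was -0.32 and was no longer past the threshold.

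Retinol transport and uptake. RBP4 and STRA6, a secreted carrier and its cell-surface receptor, differed in opposite directions with RES. RBP4 counts were 8143, 7941 and 8831 in Con and 8551, 7944 and 8060 in Model. They were 7579, 8290 and 7329 in FUCO-0.5, 7481, 7531 and 7997 in FUCO-1, and 7428, 6488 and 6485 in FUCO-2, against 5123, 3775 and 4200 in RES. The RES libraries, at 196 to 207 CPM, were all below the 15 others, at 345 to 478 CPM. Mean RBP4 was 449 ± 17.4 CPM in Model and 202 ± 5.57 CPM in RES, a log2 fold change of -1.15 (SE 0.079). With fucoxanthin the group means were lower than Model at each dose, by smaller amounts, with log2 fold changes of -0.10 in FUCO-0.5, -0.12 in FUCO-1 and -0.23 (SE 0.078) in FUCO-2, and FUCO-1 overlapped Model. The FUCO-2 value ran from -0.32 to -0.16 with 1 library left out at a time and lost its call in 6 of those fits.

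STRA6 was higher in Model than in Con and higher again in RES. Its counts were 35, 44 and 44 in Con and 71, 81 and 72 in Model. They were 65, 61 and 71 in FUCO-0.5, 58, 62 and 62 in FUCO-1, 94, 73 and 57 in FUCO-2, and 172, 127 and 144 in RES. On the CPM scale Con, at 2.02 to 2.63, was below every Model library, at 3.89 to 4.51, and RES, at 6.72 to 6.95, was above all 15 other libraries. The log2 fold change was 0.81 (SE 0.18) for Model against Con and 0.74 (SE 0.16) for RES against Model. The fucoxanthin groups were closer to Model, with -0.20 (SE 0.17) in FUCO-0.5, -0.33 (SE 0.17) in FUCO-1 and 0.03 (SE 0.17) in FUCO-2, and FUCO-1 lay below every Model library while FUCO-2 was the widest group. STRA6 (chromosome 15, 74179466 to 74212259) overlaps CCDC33 over 9261 bases, and mean CCDC33 was at most 0.199 CPM in any group.

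CRABP2, which carries retinoic acid to the receptors, was close to the limit of detection, with 4 counts in each Con library, 4, 10 and 6 in Model, 7, 3 and 5 in FUCO-0.5, 5, 4 and 2 in FUCO-1, and 5, 4 and 8 in FUCO-2. RES had 13, 12 and 18 counts. The lowest RES library, at 0.525 CPM, was below the highest Model library, at 0.556 CPM, so the groups overlapped, and the log2 fold change was 0.85 (SE 0.39).

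Per kb of exon, the Model means ran in the order RBP4 (308 CPM per kb), CYP26B1 (27.4), DHRS3 (13.0), RARA (6.22), STRA6 (0.535), RARG (0.353), CRABP2 (0.339), RARB (0.231) and CYP26A1 (0.0124). In FUCO-1 RARB was at 0.0850 CPM per kb, and in RES RBP4 and CYP26B1 were at 139 and 8.75, still the most abundant of the set together with DHRS3.

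**Figure D2:**
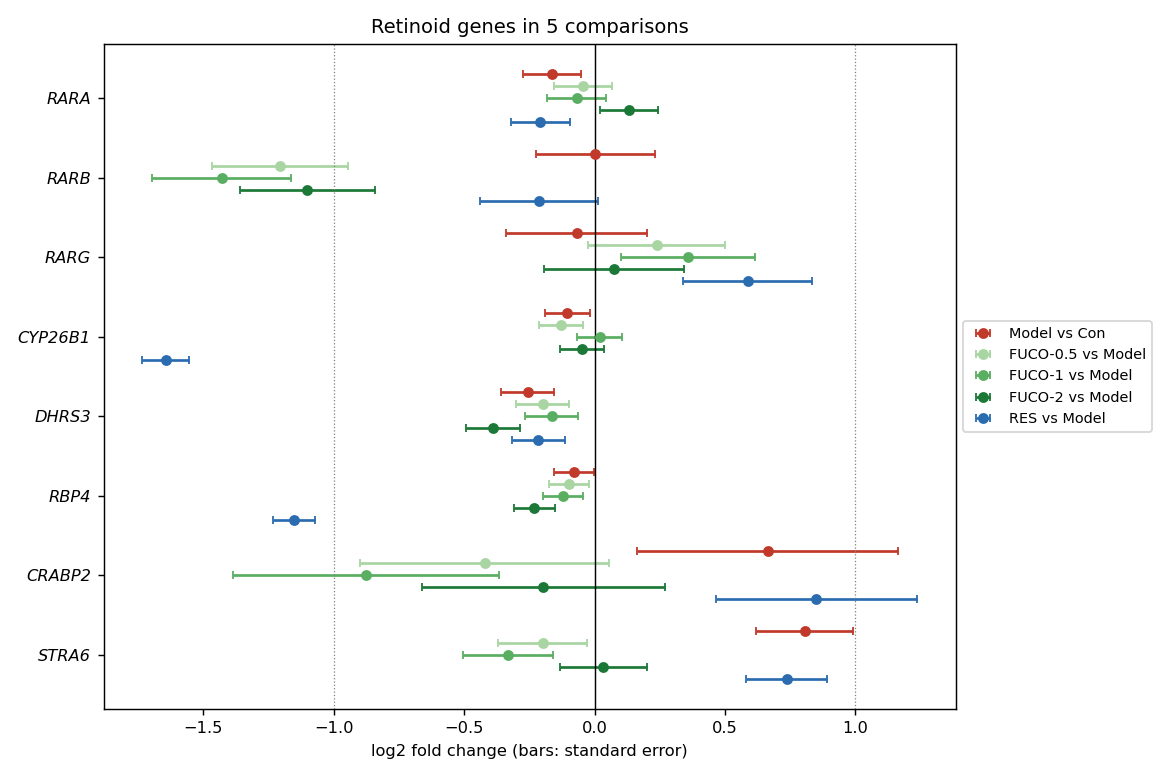
Log2 fold change of the 8 retinoid genes that passed the filter, in 5 comparisons. Points are edgeR estimates, bars are SE and dotted lines mark a log2 fold change of -1 and 1. The 3 fucoxanthin points of RARB lie between -1.43 and -1.10, and the RES points of CYP26B1 and RBP4 at -1.64 and -1.15.

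The number of members called at an adjusted p under 0.05 (edgeR's quasi-likelihood test) is given as a description, since the members were chosen with these results known. For Model against Con 1 of 8 tested members was called, STRA6, where 17.6% of all 14557 tested genes were called. For FUCO-0.5 and FUCO-1 against Model 1 of 8 was called, RARB, where 1.45% and 3.21% of all tested genes were called. The FUCO-0.5 call was lost without Model replicate 2 (log2 fold change -1.07) or FUCO-0.5 replicate 1 (-1.16), which leaves 0 called members, and the FUCO-1 call was kept in every such fit. For FUCO-2 against Model 3 of 8 were called, all lower, RARB, DHRS3 and RBP4, where 20.5% of all tested genes were called and 9.71% were called lower. Without FUCO-2 replicate 2, 1 of these was left. For RES against Model 3 of 8 were called, CYP26B1, RBP4 and STRA6, where 49.4% of all tested genes were called. That count was 5 without Con replicate 1 or FUCO-2 replicate 1. For Model against Con it was 2 without Con replicate 1, with DHRS3 added. With a log2 fold change beyond 1 or -1 required as well, RARB was called at each fucoxanthin dose, where 0.268%, 0.495% and 1.6% of tested genes were, and CYP26B1 and RBP4 were called with RES, where 9.91% were. The median log2 fold change of the 8 members was -0.07 for Model against Con, -0.16 in FUCO-0.5, -0.14 in FUCO-1, -0.12 in FUCO-2 and -0.21 in RES, against medians between 0.00 and 0.01 over all tested genes. Libraries of the compared groups did not overlap for 2 of the 8 members in Model against Con, 3 in FUCO-0.5, 4 in FUCO-1, 3 in FUCO-2 and 6 in RES, where this held for 35.7%, 19.6%, 23.3%, 36.3% and 64% of all tested genes.

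Both CYP26B1 and RBP4 were low in the group in which the summed hepatocyte markers were lowest. ALB, at a mean of 33912 CPM, made up most of that sum in Model. Not every marker was lowest in RES. Mean FGB was highest there, at 150 CPM against 141 CPM in Con, and mean SERPINA1 was 2481 CPM in RES and 2400 CPM in FUCO-2. In RES against Model 7 of the 8 hepatocyte markers fell and 1, FGB, rose, with ALB at a log2 fold change of -2.17 and HNF4A at -0.40. In FUCO-2 against Model 7 of 8 fell, in FUCO-1 1 of 8, and in FUCO-0.5 0 of 8 (2 at an unadjusted p under 0.05). For Model against Con 5 of 8 fell. Called lower were 25.1% of all tested genes with RES, 9.71% in FUCO-2, 2.32% in FUCO-1, 1.16% in FUCO-0.5 and 9.12% for Model against Con. CYP26B1 was not called for Model against Con (log2 fold change -0.10) or in FUCO-2 (-0.05). RBP4 was not called for Model against Con (-0.08) and was called lower in FUCO-2 (-0.23). In FUCO-0.5 FGB was at 75.8% and APOA1 at 78.5% of Model, with libraries that did not overlap. The part of the hepatocyte markers in the fucoxanthin and RES results was not tested.

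The other genes of the pathway were taken from a list of 53, of which 39 were tested. For Model against Con 8 of 39 (20.5%) passed the test, 4 higher and 4 lower, close to the 17.6% of all tested genes. ALDH8A1, an aldehyde dehydrogenase that can act on retinal, rose from 9.69 ± 3.71 to 25.9 ± 0.860 CPM (log2 fold change 1.42, SE 0.17, adjusted p = 2.55e-06). RBP7, a cellular retinol-binding protein, rose from 1.81 ± 0.715 to 3.78 ± 0.675 CPM (log2 fold change 1.07, SE 0.23, adjusted p = 0.00153). FABP5, which can carry retinoic acid to another nuclear receptor, rose from 11.4 ± 1.11 to 18.1 ± 1.60 CPM (adjusted p = 0.00074). PNPLA3, a lipase with retinyl ester activity, fell from 178 ± 18.2 to 109 ± 7.14 CPM (log2 fold change -0.71, SE 0.087, adjusted p = 3.22e-06). NCOA3, a receptor coactivator, was called with overlapping libraries (log2 fold change -0.45, adjusted p = 0.0193) and lost the call without Con replicate 2 or 3 or Model replicate 2 or 3. RDH10, which makes retinal from retinol, was named after its values were seen and fell from 179 ± 2.59 to 135 ± 5.82 CPM (adjusted p = 0.000347). Of 15 tested genes on a list of 21 retinoic acid targets, 2 rose (13.3%), and 1 of them, RARRES1, was above the level set for naming, with 6.42 ± 0.750 CPM in Con and 10.2 ± 0.527 CPM in Model (log2 fold change 0.67, adjusted p = 0.000557). The other, G0S2, was named after its values were seen and had 0 or 1 count in each Con library and 3 to 5 in each Model library. It passed the filter through RES, where it had 47 to 51 counts against at most 8 in any other library. The count of targets was 1 without Con replicate 2 or 3 or any 1 of the Model libraries.

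In FUCO-0.5 and FUCO-1 no other pathway gene and no listed target passed the test. In FUCO-0.5 4 of 39 pathway genes and 1 of 15 targets were at an unadjusted p under 0.05, where 11.3% of all tested genes were, and DESeq2 called 0 and 0. In FUCO-1 these numbers were 6 and 2, where 16.3% of all tested genes were, and DESeq2 called 1 and 1. A p that misses the threshold does not show that these genes were equal between groups. Without FUCO-2 replicate 1, a library that shares the fit but is in neither compared group, 1 pathway gene and 2 targets were called in FUCO-1.

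In FUCO-2, 12 of 39 pathway genes passed (30.8%, against 20.5% of all tested genes), 4 higher and 8 lower. AKR1B10, a retinal reductase, rose from 0.971 ± 0.171 to 2.74 ± 0.881 CPM (log2 fold change 1.50, SE 0.32, adjusted p = 0.00159). AOX1, an aldehyde oxidase able to oxidise retinal, rose from 0.770 ± 0.337 to 2.02 ± 0.411 CPM (log2 fold change 1.39, SE 0.33, adjusted p = 0.00372). Both were scarce transcripts. TTR, the plasma partner of RBP4, fell from 209 ± 11.8 to 113 ± 19.9 CPM (log2 fold change -0.88, SE 0.11, adjusted p = 4.18e-06). ADH1A, an alcohol dehydrogenase that oxidises retinol, fell from 4.26 ± 0.195 to 1.89 ± 0.729 CPM (log2 fold change -1.18, SE 0.23, adjusted p = 0.000754). ALDH8A1 fell from 25.9 ± 0.860 to 16.3 ± 1.29 CPM (adjusted p = 0.00454), opposite to its direction in Model against Con. Named after its values were seen, BCO2, which cleaves carotenoids, rose from 0.621 ± 0.0566 to 1.26 ± 0.188 CPM (adjusted p = 0.0177). The BCO2 call was lost with DESeq2 (adjusted p = 0.0631), without Model replicate 2 (0.0657) and without FUCO-2 replicate 1 (0.0655).

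Of the targets, 5 of 15 passed in FUCO-2 (33.3%, against 20.5% of all tested genes), 1 higher and 4 lower, where 9.71% of all tested genes were lower. MEIS1, a homeobox gene, fell from 6.15 ± 0.707 to 3.95 ± 0.857 CPM (log2 fold change -0.64, SE 0.16, adjusted p = 0.00676), and its log2 fold change was -0.49 without FUCO-2 replicate 2, where the call was lost. NR2F2 (-0.22, adjusted p = 0.0336), FOXA1 (-0.17, adjusted p = 0.0494) and TGM2 (0.29, adjusted p = 0.0323) were near the threshold. Of 18 fits with 1 library left out, FOXA1 lost its call in 15, NR2F2 in 5 and TGM2 in 4. The count of 5 thus includes FOXA1, a call that most of these fits did not keep. The count was 2 without Model replicate 1, Model replicate 3 or FUCO-2 replicate 2, and 3 without Model replicate 2.

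With RES, 22 of 39 pathway genes passed (56.4%, against 49.4% of all tested genes), 6 higher and 16 lower. ALDH8A1 fell from 25.9 ± 0.860 to 2.48 ± 0.845 CPM (log2 fold change -3.38, SE 0.20, adjusted p = 1.00e-12). TTR fell from 209 ± 11.8 to 38.0 ± 2.93 CPM (log2 fold change -2.46, SE 0.12, adjusted p = 1.58e-14). PNPLA3 fell to 37.3 ± 3.64 CPM (log2 fold change -1.54, adjusted p = 9.51e-13). ISX, which represses carotenoid uptake, fell from 5.60 ± 1.20 to 1.81 ± 0.534 CPM (adjusted p = 1.36e-07). AKR1C3, a retinal reductase, fell by 1.19 on the log2 scale (adjusted p = 0.00872), and by 0.82 without RES replicate 1, where the call was lost (adjusted p = 0.0770).

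Named after its values were seen, RXRA, the main RXR of the liver, fell with RES from 186 ± 7.56 to 85.2 ± 3.96 CPM (log2 fold change -1.13, SE 0.10, adjusted p = 1.6e-09). RXRB was at 14.2 ± 1.16 CPM in Model and 15.7 ± 0.591 CPM in RES and did not pass the test. FABP5, also named after its values were seen in this comparison, rose from 18.1 ± 1.60 to 32.9 ± 2.15 CPM (log2 fold change 0.86, adjusted p = 1.62e-06).

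Of the targets, 11 of 15 passed with RES (73.3%, against 49.4% of all tested genes), 3 higher and 8 lower. Of those higher, 1 was G0S2, which was tested through its RES libraries and therefore had to differ. TGM2, a transglutaminase, fell from 32.3 ± 0.149 to 8.74 ± 0.542 CPM (log2 fold change -1.88, SE 0.11, adjusted p = 3.07e-13). RARRES1 fell by 0.99 on the log2 scale (adjusted p = 5.49e-07). HOXA5, a homeobox gene, rose from 6.51 ± 0.481 to 10.8 ± 0.516 CPM (log2 fold change 0.73, adjusted p = 5.32e-05). The summed hepatocyte markers given above were lowest in the same libraries.

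**Figure D3:**
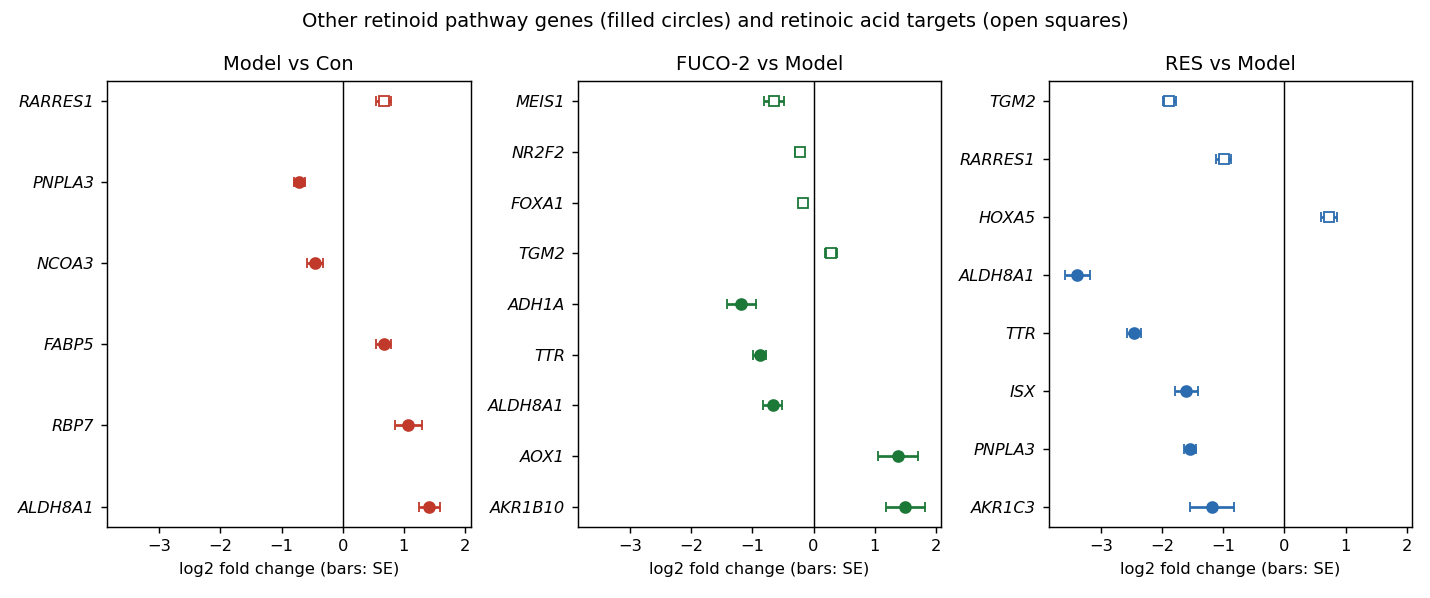
Log2 fold change of the other retinoid pathway genes (filled circles) and retinoic acid targets (open squares) named in the text by the naming rule, with SE as bars, in the 3 comparisons in which any passed. ALDH8A1 is at 1.42 for Model against Con, at -0.67 for FUCO-2 against Model and at -3.38 for RES against Model.

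The genes whose log2 CPM followed each member most closely were sought among tested genes with a mean of at least 1 CPM, by Pearson r over the 18 libraries, as a description. For RARB they were CADPS2 (0.91), MIRLET7A1HG (0.91) and TSPAN31 (0.90). For CYP26B1 they were PROC, IGF2 and UNC93A, and for RBP4 they were MATCAP1, SCARA3 and SERPINF2, each at 0.99. The points share libraries and fall into groups, with the RES libraries apart for CYP26B1 and RBP4. For STRA6 they were NOTCH2 (0.95), PXDC1 (0.94) and HPSE (0.93), and for DHRS3 EFCAB12 (0.91), PGF (0.89) and MAP3K3 (0.87). Those of RARA were AGAP3 (0.89), MAU2 (0.88) and ANKRD13D (0.88). The low-count genes RARG and CRABP2 gave CENPP (0.81), NCAM2 (0.79) and RAB6B (0.79), and CDC40 (0.88), SMIM13 (0.87) and KIF3A (0.86), in that order.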

How the data were processed

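Gene-level RNA-seq counts of 18 Hep3B libraries, 6 groups of 3, were analysed. The authors trimmed reads with fastp, aligned them with STAR to GRCh38, counted them per gene with featureCounts and deposited raw counts without normalization; strand and multimapping settings are not given in the sources used here. Groups and replicate numbers were taken from the sample titles, and each group was described as 3 biological replicates. All columns of the table were used.

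Counts were tested with edgeR 4.0.16 (R 4.3.3): filterByExpr (minimum count 10, minimum total 15), TMM factors, 1 term per group over all 18 libraries, a quasi-likelihood test with prior count 0.125, and Benjamini-Hochberg adjustment over 14557 genes. A call is an adjusted p under 0.05. SE is the absolute log2 fold change over the square root of F. CPM used TMM-scaled totals of the tested genes. The study used DESeq2, run here (1.42.0) as an alternative. On simulated counts of Model against Con for 14557 genes, 107 of 107 genes changed by a log2 of 2 and 88 of 93 changed by 1 were recovered, with 12 false calls among the rest.

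The members, the pathway, target and marker lists and the naming rule were chosen with earlier results of these data known. Named were all members, and per comparison up to 5 called genes of each list with the largest absolute log2 fold change and a mean of at least 1 CPM. Exceptions are said to be so where named. Some genes that the rule chose are not reported here. For each member the 3 genes with the highest r were named. Exon lengths came from GENCODE v44, positions and promoters from RefSeq (GRCh38.p14). Limits set by a count of 0 cover counting error only. Replicates differed by more than sampling noise, with a chi-square per degree of freedom of 2.30 to 19.3 between pairs. Pairs with Con replicate 1 gave 15.5 and 13.2, against 2.30 for the other Con pair. Those with FUCO-2 replicate 1 gave 19.3 and 18.6, against 5.72. With FUCO-0.5 replicate 2 they were 10.4 and 17.9, against 5.85, and with FUCO-1 replicate 3 10.0 and 11.0, against 4.52.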

Additional observations from a re-analysis of the deposited data

How the results depend on the processing

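Alternatives were RLE factors, no filter, at least 10 counts in every library, DESeq2, the 2 compared groups alone, a replicate block, a log2 fold change beyond 1 as a second condition and each library left out; those of the named non-member genes were added after seeing the data. Of 946 such fits of the members' log2 fold changes 905 kept direction and call. Most of the 40 results behind these fits were not called to begin with, and fits that dropped the gene were not counted. RARB had 9 to 46 counts a library, which limits its precision, and CYP26A1 had too few to be tested. Without a filter, 2 members were called for Model against Con, 1 target for Model against Con and 1 pathway gene in FUCO-1. With at least 10 counts in every library RARB left the fit, so that 0 members were called in FUCO-0.5 and 0 in FUCO-1, and 1 target for Model against Con. With DESeq2, 1 pathway gene and 1 target were called in FUCO-1. With 2 groups alone, 3 pathway genes and 1 target were called in FUCO-1, 2 targets in FUCO-2, 1 target for Model against Con and 6 members with RES. With the fold condition, members called were 0 for Model against Con and 1 in FUCO-2. Pathway genes were then 2 for Model against Con, 4 in FUCO-2 and 8 with RES, and targets were 1, 0 and 2.

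The deviations of same-numbered libraries from their group means correlated at -0.0450 to 0.126 in 15 pairs, 3 of them over 0.1. These low values did not show pairing, and with 3 libraries a group they cannot exclude it. With the replicate number as a block, 2617, 235, 510, 3040 and 7275 genes were called in the 5 comparisons, against 2555, 211, 467, 2990 and 7194 without it. The block turned the sign of RARB for Model against Con (-0.0036) and called RARG with RES (adjusted p = 0.0441).

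With 1 library left out at a time, called members ranged from 1 to 2 for Model against Con, 0 to 1 in FUCO-0.5, 1 to 1 in FUCO-1, 1 to 3 in FUCO-2 and 3 to 5 with RES. Pathway genes ranged from 7 to 12, 0 to 0, 0 to 1, 9 to 13 and 20 to 23, and targets from 1 to 3, 0 to 0, 0 to 2, 2 to 5 and 10 to 11, in the same order. Uncalled members changed sign in 13 of these fits. RARB for Model against Con ranged from -0.127 to 0.0864 (-0.0751 without Con replicate 3) and RARG from -0.342 to 0.213. In FUCO-1 CYP26B1 ranged from -0.0611 to 0.106 (-0.0117 among them). In FUCO-2 STRA6 ranged from -0.186 to 0.178 (-0.00153 and -0.000954 among them), CRABP2 from -0.542 to 0.221 (0.0358 among them), RARA from -0.0542 to 0.236, CYP26B1 from -0.129 to 0.00194 and RARG from -0.0338 to 0.201. Where a call or sign changed otherwise, the cause was not tested. Of 836 fits of the other genes chosen for naming 792 kept their call, 44 lost it and 0 changed sign.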
